A study of Rattus norvegicus with 6 samples.

Results

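The liver arrays carried 796 oligonucleotide probes whose names begin with C_CA_ and whose systematic name only repeats the probe name. They are 796 of the 61657 probes other than controls, and were chosen by the start of their name. The name rule uses no signal, but the set was proposed with earlier results of the same arrays known, namely the phenolphthalein differences of some of these probes. The names fall into 3 numbered series, with 139 probes in series A, 127 in series B and 530 in series D. None of them matched a RefSeq gene through its name, so each is described below by its signal, and probe sequences are not used here. Livers came from 6 male Sprague-Dawley rats, bought at 5 weeks of age and kept on a basal diet. Corn oil was given to 3 animals, and the other 3 were dosed with 1000 mg of phenolphthalein per kg each day. Phenolphthalein is a pH indicator and former laxative drug. The protocol speaks of 9 weeks of dosing and the design text of 28 days. Liver total RNA, labelled with Cy3, was read on Agilent 1-colour arrays, with 1 array per animal.

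Long oligonucleotide arrays report the amount of labelled cRNA that binds each spotted probe, so a probe without a gene name still has a signal, although what it binds is not named here. In rat liver, many drugs act through the nuclear receptor CAR, which switches on cytochrome P450 genes of the Cyp2b family together with conjugating enzymes. Cyp2b1 and Cyp2b2 are the phenobarbital-inducible members of this family, and their probes serve here as the named pattern against which the C_CA_ probes were set. Cyp2b genes are close paralogs, and the signal of a Cyp2b probe may not belong to 1 gene alone.

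Corn oil and phenolphthalein animals were hybridised on separate slides with separate scans, and the treatment cannot be told apart from slide or scan in what follows. All 6 hepatocyte markers (Alb, Apoa1, Ttr, Tf, Fgb and Serpina1) were well above background on all 6 arrays. The pancreatic acinar markers Prss1 and Cpa1 were not well above background on any array, whereas the muscle markers Ckm and Acta1 were on all 6. All 4 Kupffer cell markers were lower with phenolphthalein without overlap between the groups. Their mean log2 signal, relative to the array's 75th percentile as for every signal below, ran from 2.32 to 2.67 in corn oil and from 1.58 to 2.01 in phenolphthalein animals. The 3 markers taken for lymphocytes (Ptprc, Cd3d and Lck) also did not overlap, with means of -1.07 to -0.95 against -1.59 to -1.36. Among all probes tested, the groups did not overlap for 21.1%. None of these Kupffer cell and lymphocyte markers had a limma adjusted p under 0.05 (0.192 to 0.338). In bulk liver RNA, fewer cells of a type and less RNA per cell cannot be told apart.

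Some spots were missing on single arrays, and they set part of the largest fold changes. In array column 58 of phenolphthalein replicate 1, 44.7% of bright spots were over 2 log2 units low, as were 12.6% in column 144 of phenolphthalein replicate 3. Elsewhere on those arrays the share was 0.137% and 0.157%. The 2 columns held 9 and 4 C_CA_ probes, of which 6 and 1 were low. C_CA_D0001, for example, read -7.57 in phenolphthalein replicate 1 and 6.19 to 6.82 on the other 5 arrays, and C_CA_A0010 read -7.29 in phenolphthalein replicate 3 and 6.63 to 7.67 elsewhere. Their log2 fold changes, phenolphthalein over corn oil, of -4.72 and -4.21 became -0.03 and 0.71 once those columns were set missing. These make up 7 of the 23 members with a log2 fold change of -1 or lower, and none of them passed limma's test in either form.

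The C_CA_ spots were bright, which describes the spots and not the amounts of transcript behind them. Per array, 96.7% to 97.7% of them were well above background, against 61.7% to 64.7% of the other probes. All 6 arrays measured 763 of the 796 above background, and 13 were above it on none. The median C_CA_ signal was 2.85 to 2.92 log2 units above the array's 75th percentile, whereas the median of the other probes lay at -3.48 to -3.37. Series B had the highest median over the arrays, 3.66, against 2.81 for series A and 2.76 for series D. Series A held the largest share of dim probes, since 125 of its 139 passed the filter for testing, against 127 of 127 in series B and 525 of 530 in series D.

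The brightest member, C_CA_A0017, read 10.04, 10.11 and 10.18 in corn oil replicates 1 to 3 and 10.18, 10.20 and 10.17 in phenolphthalein replicates 1 to 3. The next 4 were C_CA_B0074, C_CA_D0125, C_CA_D0453 and C_CA_D0122, and on each of these 5 probes the group means differed by at most 0.16 log2 units. None of the 5 passed the test. C_CA_B0074 did not overlap between the groups, at 9.90 to 9.96 in corn oil and 10.05 to 10.11 in phenolphthalein animals. Its log2 fold change was 0.16 ± 0.07 (SE).

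Most C_CA_ probes differed little between the treatments. Of the 777 tested, 671 had a log2 fold change within 0.5 of 0, which is 86.4% of them, against 90.6% of all 39411 probes tested. The median log2 fold change was 0.02 for the C_CA_ probes and 0.02 for all probes. The phenolphthalein mean exceeded the corn oil mean on 423 members and lay below it on 354. The groups did not overlap for 194 members, 113 of them higher and 81 lower with phenolphthalein. Among all tested probes, 21.1% showed such separation. An unadjusted p under 0.05 was reached by 131 members, 64 higher and 67 lower, against 13.2% of all probes.

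Only 3 C_CA_ probes had a limma adjusted p under 0.05 (Benjamini-Hochberg over the 39411 probes tested), and all 3 were higher with phenolphthalein. Over the whole array 0.0457% of probes were called higher at this threshold and 0.00254% lower. The 3 probes were C_CA_A0106, C_CA_A0107 and C_CA_A0001, all of series A. No C_CA_ probe was called lower, against 67 lower at an unadjusted p under 0.05. Leaving out any 1 of the 6 arrays ended all 3 calls, with a lowest limma adjusted p of 0.056 (without corn oil replicate 2) to 0.174 (without corn oil replicate 3). Testing without the filter on dim probes also ended them, at 0.0663, and the direction stayed the same throughout. The loss was not particular to these 3 probes. Leaving out 1 array left 0 to 5 calls over all tested probes, against 19 with all 6 arrays, and dropping the filter left 0.

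C_CA_A0106 had the largest rise. It read 6.51, 5.46 and 6.10 in corn oil replicates 1 to 3 and 9.70, 9.67 and 9.39 in phenolphthalein replicates 1 to 3. The lowest phenolphthalein array lay far above the highest corn oil array, and corn oil replicate 2 was the lowest of all. The group means were 6.03 ± 0.53 and 9.59 ± 0.17 (SD, n = 3 per group), an 11.8-fold difference. The log2 fold change was 3.56 ± 0.27 (SE), with a limma adjusted p of 0.0337. Without 1 array it ran from 3.28 to 3.80.

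C_CA_A0107, the next number in the name series, had a lower signal in corn oil animals than the 75th percentile of the arrays. It read -1.93, -1.08 and -1.68 in corn oil replicates 1 to 3, and 1.83, 1.46 and 1.60 in phenolphthalein replicates 1 to 3, all above the percentile. The array order within the corn oil group was the reverse of that for C_CA_A0106, with replicate 2 highest. The difference was 9.14-fold, from -1.56 ± 0.44 to 1.63 ± 0.19 (SD, n = 3 per group), and the limma adjusted p was 0.0311.

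C_CA_A0001 read 2.46, 2.81 and 2.71 in corn oil replicates 1 to 3 and 4.90, 4.77 and 4.52 in phenolphthalein replicates 1 to 3. Here the arrays of each group lay close together. The rise was 4.20-fold, from 2.66 ± 0.18 to 4.73 ± 0.19 (SD, n = 3 per group), with a limma adjusted p of 0.0293.

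The array had 15 probes matched to Cyp2b genes, of which 14 passed the filter and 10 were called higher with phenolphthalein. These 10 comprised the Cyp2b1 probe, all 5 Cyp2b2 probes, 1 probe each of Cyp2b12 and Cyp2b15, and both Cyp2b21 probes, with log2 fold changes from 1.84 to 4.72. The 2 probes of Cyp2b3, a form not known for phenobarbital induction, had log2 fold changes of -0.10 and -0.26 and did not pass. The mean of the 10 was 4.08, 3.45 and 3.81 in corn oil replicates 1 to 3 and 7.41, 7.50 and 6.94 in phenolphthalein replicates 1 to 3. Within corn oil, replicate 1 was thus the highest and replicate 2 the lowest, and within phenolphthalein replicate 3 was the lowest.

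Over the 6 arrays, the Pearson correlation with this Cyp2b mean was 0.997 for C_CA_A0106, 0.959 for C_CA_A0107 and 0.979 for C_CA_A0001. These values carry no test, because both sides were picked for the same difference between the groups, which by itself sets a high correlation. Correlating the deviations from the group means leaves only how the animals, or their arrays, differed within each treatment. On that measure the correlation was 0.90 for C_CA_A0106, -0.67 for C_CA_A0107 and -0.02 for C_CA_A0001. Of all tested probes, 1.68% correlated as highly as C_CA_A0106, 87.7% as highly as C_CA_A0107 and 47.1% as highly as C_CA_A0001. Of the 3 called probes, C_CA_A0106 thus had the same order of highs and lows as the Cyp2b mean within corn oil, and the others did not.

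The choice of Cyp2b probes moved that value. With all 14 tested Cyp2b probes in the mean, the correlation of the deviations of C_CA_A0106 was 0.64, a value reached by 9.95% of all probes. One Cyp2b15 probe in that wider mean took -5.00, 0.86 and -4.26 across the 3 phenolphthalein animals. Against the 10 called probes taken singly, the correlation of its deviations ranged from 0.13 to 0.99. It was 0.995, 0.98, 0.975 and 0.97 with 4 Cyp2b2 probes and 0.55 with the fifth. It was 0.78 with the Cyp2b12 probe, 0.37 with the Cyp2b15 probe and 0.13 with the Cyp2b1 probe. One Cyp2b21 probe gave 0.97 and the other 0.30, so values differed between probes of 1 gene. These Cyp2b probes share the same 6 arrays and, as paralogs, possibly signal, so they are not separate measures.

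Patterns were then set against the tested probes with a gene name. This was done for the 764 tested C_CA_ probes outside the columns of missing spots, as far as they are named below or had an SD over the 6 arrays of at least 0.5. The measure was the root mean square difference of the log2 values over the 6 arrays, after each probe's own mean was removed, so a small value means the same shape and the same size of change. How far this measure identifies a transcript was read from the named probes whose gene had another tested probe and whose SD over the 6 arrays was at least 0.5. A C_CA_ probe may have no named probe of its own transcript to find, so the shares that follow may be too high for it. The nearest probe belonged to the same gene for 236 of the 938 named probes, or 25.2%. When the difference was at most 0.1 of the probe's own SD, it did so for 78 of 96, or 81.2%. At a difference of at most 0.15 of the SD, it did so for 150 of 235, or 63.8%. Among the matches below, the difference exceeded 0.1 of the SD for C_CA_A0028 (0.12), C_CA_A0001 (0.14) and C_CA_A0107 (0.1504). The same holds for C_CA_D0029 (0.11), C_CA_B0065 (0.13), C_CA_B0046 (0.16), C_CA_D0081 (0.1027), C_CA_D0161 (0.11) and C_CA_B0078 (0.16). A near match therefore describes a shared pattern and does not name the transcript. The difference between the groups stays in this measure. Members named for a large change can therefore lie near only probes with a like change, and such matches are not independent of that choice.

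By this measure the nearest named probe to C_CA_A0106 was one of Cyp2b2, which read 6.33, 5.58 and 5.92 in corn oil and 9.55, 9.56 and 9.19 in phenolphthalein replicates 1 to 3. The patterns differed by 0.11 log2 units, against an SD of 1.98 over the arrays. C_CA_A0001 lay nearest to a probe of Cyp2b21, at 0.16 log2 units, which read 5.74, 5.76 and 5.80 in corn oil and 7.71, 7.76 and 7.35 in phenolphthalein animals. C_CA_A0107 lay nearest to Ugt2b1, a UDP-glucuronosyltransferase that joins glucuronic acid to drugs and steroids, at 0.27 log2 units. The Ugt2b1 probe read 4.56, 5.18 and 4.56 in corn oil, where replicate 2 was highest as for C_CA_A0107, and 7.62, 7.38 and 7.37 in phenolphthalein animals.

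Another 5 members had a log2 fold change above 1 with an unadjusted p under 0.05 and no overlap between the groups, which with the 3 called probes makes 8 members. Among all probes tested, 0.223% met these criteria. None of the 5 passed over all probes. C_CA_A0115 read 4.33, 5.04 and 4.18 in corn oil replicates 1 to 3 and 7.35, 7.02 and 7.07 in phenolphthalein replicates 1 to 3, with replicate 2 again the highest of the corn oil group. The group means were 4.51 ± 0.46 and 7.15 ± 0.18 (SD, n = 3 per group), a 6.20-fold difference with a limma adjusted p of 0.0681. It lay just outside the threshold and passed in 4 of 17 alternative settings. Its nearest named probe was the Ugt2b1 probe, at only 0.08 log2 units, while C_CA_A0107 and C_CA_A0115 differed from each other by 0.30.

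C_CA_A0028 read 1.81, 1.69 and 1.23 in corn oil and 3.92, 3.66 and 2.85 in phenolphthalein replicates 1 to 3, so replicate 3 was the lowest of each group. Its log2 fold change was 1.90 ± 0.31 (SE), with a limma adjusted p of 0.168. The nearest named probe, at 0.13 log2 units, was that of Ces2c, a carboxylesterase that splits ester drugs, with 0.26, 0.39 and -0.12 against 2.26, 2.14 and 1.22. The Ces2c probe did not pass either, with a limma adjusted p of 0.176.

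C_CA_A0055 and C_CA_A0059 were the most alike pair among the C_CA_ probes that varied between arrays. C_CA_A0055 read 8.35, 7.95 and 8.21 in corn oil and 9.29, 9.19 and 9.18 in phenolphthalein replicates 1 to 3. C_CA_A0059 read 8.34, 7.85 and 8.16, and 9.23, 9.17 and 9.11. The 2 patterns differed by 0.03 log2 units, and each probe was close to 2-fold higher with phenolphthalein, with log2 fold changes of 1.05 ± 0.12 and 1.05 ± 0.14 (SE). Their limma adjusted p was 0.116 and 0.125. Both lay nearest to a probe of Cyp2c6v1, a cytochrome P450 of the Cyp2c family that rat liver makes in quantity, at 0.06 log2 units each. Their deviations within the groups correlated with the mean of the 10 Cyp2b probes at 0.78 and 0.83, values reached by 5.17% and 3.51% of all tested probes. Against the 10 taken singly, the correlations ranged from 0.03 to 0.94 and from 0.04 to 0.97, lowest with the Cyp2b1 probe for both. With all 14 tested Cyp2b probes in the mean, the correlations were 0.42 and 0.53, reached by 20.1% and 14.8%. Against the mean of the 10, C_CA_A0115 stood at -0.50 and C_CA_A0028 at 0.59.

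The last of the 8, C_CA_D0069, was dim. It read -4.65, -4.15 and -4.15 in corn oil and -3.35, -3.76 and -2.68 in phenolphthalein replicates 1 to 3. Its log2 fold change of 1.05 ± 0.30 (SE) had a limma adjusted p of 0.274, and was 0.51 with normexp background correction. Its deviations ran against the Cyp2b mean, at -0.87. No named probe was close, the nearest being Mrap at 0.21 log2 units.

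The 11 members with a log2 fold change of at least 1 comprised 8 of the 125 tested in series A, 0 of 127 in series B and 3 of 525 in series D. The 23 members at -1 or lower, 7 of them the missing spots, comprised 2 in series A, 7 in series B and 14 in series D. Over all 39411 probes, 208 lay at 1 or higher and 537 at -1 or lower. No test of a difference between the series was made. Whether numbers next to each other in a name mark like patterns was not settled, because most members varied little between arrays. Only 98 of the 764 tested members outside the columns of missing spots had an SD of at least 0.5. The median correlation over the 6 arrays between consecutive numbers was 0.04 in series A, 0.10 in series B and -2e-04 in series D, against -0.004, -0.008 and 0.01 over all pairs of the series.

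Lower with phenolphthalein by more than 1 log2 unit, with an unadjusted p under 0.05 and no overlap, were 10 members, and none of them passed over all probes. Among all probes tested, 0.5% met these criteria. Their limma adjusted p ran from 0.124 to 0.324. All 4 Kupffer cell markers and all 3 lymphocyte markers had lower means in the same animals. So did all 4 stellate cell markers, 1 of them without overlap, and the 2 endothelial markers found on the array. Lower means were also seen for 1 of 6 hepatocyte, 1 of 3 cholangiocyte and 1 of 2 muscle markers. None of these markers passed the test either. The part of those cells in the signal of the 10 probes was not tested.

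C_CA_D0404 read 3.40, 4.11 and 3.16 in corn oil and 2.06, 1.83 and 2.53 in phenolphthalein replicates 1 to 3. Corn oil replicate 2 was the highest and phenolphthalein replicate 2 the lowest. The log2 fold change was -1.42 ± 0.30 (SE), with a limma adjusted p of 0.21. The nearest named probe, at 0.06 log2 units, was that of Marco, a scavenger receptor of macrophages and 1 of the 4 Kupffer cell markers, which read 1.59, 2.12 and 1.21 against 0.08, -0.08 and 0.57.

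C_CA_B0096 read 0.54, 0.69 and 1.5 in corn oil and -0.22, -0.24 and -0.12 in phenolphthalein replicates 1 to 3, so the phenolphthalein animals were alike and corn oil replicate 3 stood highest. The log2 fold change was -1.10 ± 0.25 (SE). It lay nearest to RT1-Db1, a beta chain of MHC class II, which presents antigen on the cell surface, at 0.05 log2 units, with RT1-Db2 next at 0.10.

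Corn oil replicate 1 stood highest on the next 4 probes. C_CA_D0014 read 4.61, 3.58 and 3.93 in corn oil and 2.96, 3.00 and 2.85 in phenolphthalein replicates 1 to 3, and lay 0.05 log2 units from Irf7, a transcription factor that amplifies type I interferon. C_CA_D0029 read 2.76, 1.44 and 1.77 in corn oil and 0.79, 1.25 and 0.75 in phenolphthalein animals, and lay nearest to Oas1a, an interferon-induced sensor of double-stranded RNA, at 0.08. The 2 log2 fold changes were -1.10 ± 0.26 and -1.06 ± 0.36 (SE). Without 1 array they ran from -1.33 to -0.82 and from -1.34 to -0.67.

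C_CA_D0398 read 5.29, 4.55 and 4.71 in corn oil and 3.85, 3.68 and 4.0 in phenolphthalein replicates 1 to 3. Its nearest named probe was that of Or8b1d, an olfactory receptor gene, at 0.05 log2 units, followed by the interferon-induced surface protein gene Ly6e at 0.07. C_CA_B0065 read 0.98, 0.42 and 0.43 in corn oil and -0.66, -0.51 and -0.29 in phenolphthalein animals. It lay as near to Ano7, a membrane protein of the anoctamin family, as to Ly6e, at 0.08 each. The Or8b1d probe was dim, at -4.70 to -3.96 in corn oil and -5.55 to -5.26 in phenolphthalein animals. So was the Ano7 probe, at -4.63 to -3.97 and -5.72 to -5.33. The Ly6e probe was brighter, at -1.61 to -0.86 and -2.50 to -2.11. The measure does not choose between such candidates.

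C_CA_D0280 and C_CA_B0046 were both nearest to Tsc22d1, a leucine zipper protein first described as induced by TGF-beta, at 0.05 and 0.11 log2 units. C_CA_D0280 read 4.92, 5.31 and 5.53 in corn oil and 4.72, 4.13 and 3.60 in phenolphthalein replicates 1 to 3. C_CA_B0046 read 1.61, 1.85 and 1.98, and 1.17, 0.54 and 0.30. On both, phenolphthalein replicate 1 came close to corn oil replicate 1, and replicate 3 was the lowest. The log2 fold changes were -1.10 ± 0.31 and -1.14 ± 0.24 (SE).

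C_CA_D0324 was the 1 member well above background on all 3 arrays of a group and on none of the other. It read -4.33, -4.28 and -4.01 in corn oil and -7.18, -6.19 and -7.60 in phenolphthalein replicates 1 to 3, where it was not well above background. Set against the lowest signal that counts as above background, or the probe's own where higher, it was at least 2.39-fold lower with phenolphthalein. This bound carries no test and holds only for the background subtraction used here. Its fitted log2 fold change moved from -2.78 to -0.51 with normexp background correction. No named probe was close to it, the nearest being Kcnn2 at 0.66 log2 units.

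C_CA_D0081 was well above background on all 3 corn oil arrays but on 1 of the 3 phenolphthalein arrays. It read 1.68, 3.04 and 3.23 in corn oil replicates 1 to 3, and -5.69, 1.5 and -6.43 in phenolphthalein replicates 1 to 3. Phenolphthalein replicate 2 thus lay just below the lowest corn oil animal, while replicates 1 and 3 were not well above background. The size of its difference is therefore not well measured. The fitted log2 fold change of -6.19 ± 2.11 (SE) had a limma adjusted p of 0.324, was -4.16 with normexp background correction, and ran from -8.71 without phenolphthalein replicate 2 to -4.75 without replicate 3. The nearest named probes were 2 of Fam111a, a protease known for restricting viruses, at 0.45 and 0.50 log2 units against an SD of 4.41. The nearer of them read -0.16, 1.22 and 1.32 in corn oil and -6.50, -0.26 and -7.38 in phenolphthalein animals. Next came Ubd, an inducible ubiquitin-like modifier, at 0.69. C_CA_D0081 lay in column 48, outside the columns of missing spots.

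Outside the columns of missing spots, 12 of the 764 tested members had an SD over the 6 arrays of at least 1.5 log2 units, a threshold chosen after the values were seen. They include C_CA_A0106, C_CA_A0107, C_CA_D0081 and C_CA_D0324, whose groups did not overlap. On the other 8 the groups overlapped. C_CA_D0499 took 2 levels. It read 2.01 and 2.50 in corn oil replicates 1 and 2 and 2.04 in phenolphthalein replicate 2, but 5.25 in corn oil replicate 3 and 5.44 and 5.40 in phenolphthalein replicates 1 and 3. Each treatment thus held animals of either level. The nearest named probe was that of Acsm5, an acyl-CoA synthetase for medium-chain fatty acids, at 0.14 log2 units, which read 1.62, 2.17 and 5.19 in corn oil and 5.33, 1.66 and 5.26 in phenolphthalein replicates 1 to 3.

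On 2 of these 8 probes a single corn oil animal stood apart. C_CA_D0173 read 2.15 in corn oil replicate 3 and between -2.15 and -1.82 in the other 5 animals, and lay nearest to Ppp1r1b, a regulator of protein phosphatase, at 0.07 log2 units. Probes of Ppip5k1, Man2b2, Nkx2-3 and Pax8 came next, at 0.22 to 0.36, and each was also highest in corn oil replicate 3. C_CA_D0161 read -2.13 in the same animal and between 1.85 and 3.05 in the others. It lay nearest to Slpi, a secreted inhibitor of leukocyte proteases, at 0.22. Thus corn oil replicate 3 was the exception on both, high on the first and low on the second. With 1 array per animal, the animal and its array cannot be told apart.

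Other single animals stood apart elsewhere. C_CA_A0139 read -6.95 in phenolphthalein replicate 1, where it was not well above background, against -3.65 to -1.84 in the other animals, and lay nearest to Cdh17, a cadherin, at 0.17 log2 units. C_CA_B0078 read -4.79 in corn oil replicate 1 and -1.65 to 0.23 in the others, with Ephx2, the soluble epoxide hydrolase, nearest at 0.27. C_CA_A0105 read -1.56 in phenolphthalein replicate 3 and 0.37 in corn oil replicate 1, against 1.64 to 2.97 in the remaining 4 animals. C_CA_A0012 ran from -4.03 to 1.5 and C_CA_A0114 from -4.56 to -0.82, and no named probe lay within 0.65 log2 units of any of these last 3.

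Over all 764 tested members outside the columns of missing spots, 98 had an SD of at least 0.5 log2 units, and for 28 of these the nearest named probe differed by at most 0.1 of that SD. For 13 of the 28, both of the 2 nearest probes belonged to 1 gene. The closest match relative to its SD was C_CA_D0415 with Tsku, a secreted proteoglycan, at 0.04 log2 units. C_CA_D0415 read 3.94, 5.49 and 4.91 in corn oil and 6.19, 5.98 and 3.84 in phenolphthalein replicates 1 to 3, so its range was wide in both groups. C_CA_D0456 followed Adh4, an alcohol dehydrogenase, at 0.03 log2 units, with 2.52, 1.62 and 2.46 against 0.37, 1.23 and 1.94. C_CA_B0112 followed Sult2a1, a sulfotransferase for steroids and bile acids, at 0.05. It read 6.20, 6.35 and 6.64 in corn oil and 5.02, 4.31 and 6.57 in phenolphthalein animals, so phenolphthalein replicate 3 lay among the corn oil values.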

How the data were processed

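Arrays were scanned and spot intensity was extracted by the authors with Feature Extraction, whose version is 10.7.1.1 per the file headers (10.7 in the submitters' processing notes). The deposited intensity used here is background-subtracted and detrended and not scaled between arrays, per the file headers. In the value table deposited by the authors, each array's intensity was divided by its own factor, constant within 0.0629%, so scale is linear, genes are not centred and direction is the same. Its column medians were 0.0941 to 0.102. Values were log2 of the signal minus the array's 75th percentile (551 to 636) over 61657 probes. No spot was saturated, and the 4 to 14 outlier-marked spots per array, 0 of them C_CA_ spots, were set missing. The test was limma 3.58.1 (lmFit and eBayes, under R 4.3.3 with the package data.table, version 1.17.8) on 39411 probes, those that 3 or more of the arrays measured well above background, with Benjamini-Hochberg adjustment at 0.05. The number of arrays limits the precision. Gene names came from RefSeq transcripts of assembly GRCr8, which 27460 probes matched.

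The C_CA_ probes, gene lists and rules were chosen with earlier results of these data known. Named are C_CA_ probes past the adjusted threshold, those above background in 1 group alone, and the 5 brightest. The 12 highest and 12 lowest past a log2 fold change of 1, at an unadjusted p under 0.05 without overlap, are named too. Of these, 8 and 10 existed. The last rule took only members with a log2 fold change above 1. Among them it named the 5 whose deviations correlated highest with the mean of all 14 tested Cyp2b probes. The lowest of these 5 correlations was -0.02, for C_CA_A0001. Other probes, the pattern measure and its thresholds were chosen after values were seen. The methods were tested on simulated data. Same-numbered replicates did not deviate together (correlations -0.01, 0.02 and 0.01 over 39376 probes). This gives no sign that the numbers pair animals, but so few animals cannot exclude a pairing.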

Additional observations from a re-analysis of the deposited data

How the results depend on the processing

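Over 17 alternative settings, 21 of the 23 probes named by rule kept their direction. The exceptions were bright probes with small differences, C_CA_D0122 at 0.0156 with normexp and C_CA_D0125 at 0.0385 with normexp and 0.0254 with a median shift. The count of C_CA_ probes called higher was 3, and it was 3 with quantile normalization, a median shift, outlier-marked spots kept, the authors' deposited values and the columns of missing spots masked, the same 3 probes each time. It was 4 with normexp, with the filter on all 6 arrays and when tested with probes of named genes only, and 5 with an intensity trend and robust prior. Without a filter on dim probes it was 0, and without 1 array it ran from 0 to 0. With the replicate number as a block it was 0, with a lowest limma adjusted p of 0.33, and no pairing of animals is known. Over all tested probes that block setting also called 0. The count called lower was 0 in every setting. Leaving out 1 array moved the log2 fold change of C_CA_A0107 from 3.01 to 3.43 and that of C_CA_A0001 from 1.97 to 2.18. C_CA_D0324 and C_CA_D0081 were not tested with the filter on all 6 arrays, and signal near background limits both.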
